A study of Caenorhabditis elegans with 4 samples.

Results

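The lido genes of Caenorhabditis elegans were examined in dissected gonads of cde-1 mutant and wildtype worms. Of the 18 genes that carry a lido symbol in the WBcel235 annotation, 16 had a named probe on the array, each with 1 probe, and the 10 described here had a ratio on all 4 arrays. These 10 genes were chosen by name and by the ratios themselves, with their values on these arrays known. Every ratio below is therefore a description, and no test is attached to any lido gene. A ratio on all 4 arrays was present for 2222 of the 7477 genes with a named probe (29.7%), and these 2222 genes, with the lido genes among them, served as the background.

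The mutant carried the cde-1 allele tm1021, the wildtype was the N2 strain, and the 2 ages were young adults and aged adults. Each RNA came from 250 pooled gonads. Mutant and wildtype cDNA of one age were hybridised together on arrays of 2 colours, once with the mutant in Cy5, called the forward array here, and once with it in Cy3, called the swapped array. Both arrays of a stage measured the same cDNAs, so each stage and genotype is 1 RNA sample and the SD between stages is the only spread over samples. The 2 stages differ in age and are not replicates. For every member, this SD therefore holds the difference between the ages and is no measure of precision. The age in days is not given in the labels. In bulk gonad RNA, fewer cells of a type and less RNA per cell cannot be told apart.

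The family takes its name from a domain shared with LIN-8, a nuclear protein of the synthetic multivulva genes. These genes act redundantly through chromatin and transcription to hold back vulval fates in the epidermis, partly with LIN-35, the worm retinoblastoma protein. LIN-8 belongs to class A of these genes. The roles of most lido genes are not established, so none is given to single members below. The gene cde-1 encodes an enzyme that tails small RNAs with uridines, among them those bound in the germline by the Argonaute CSR-1.

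All ratios are log2 values, likely mutant over wildtype, obtained from deposited values taken as log10. The direction was taken from the format of the numbers. The sample titles read wildtype vs cde-1 for forward arrays and cde-1 vs wildtype for swapped arrays. They do not say which genotype is the numerator. If the title order were the order of the ratio, the forward and swapped arrays of a stage would have opposite directions. Scientific notation was used for all 11541 nonzero values of the young forward array and all 12418 of the aged one, and for 0 values of the swapped arrays. This was read as the swapped arrays having been turned before deposit, which the notation does not show directly. If the whole direction were the opposite, each positive ratio below would be a negative one of the same size. If no array had been turned, the average of forward and swapped arrays would be a dye effect and their difference the genotype effect. Values with the swapped arrays turned back in this way are called turned values, and every ranking of members below holds only for the deposited signs. Over probes, the deposited forward and swapped arrays of a stage had Pearson correlations of 0.58 (young) and 0.34 (aged). Between stages the correlation was -0.065 for the forward arrays and -0.12 for the swapped arrays. Which reading of the direction holds was not tested. The aged forward array was the widest of the 4, with an SD of 1.40 over its probes against 0.86 to 0.97 on the others. Its median over the 2222 genes was 0.37, against 0.13 and -0.096 on the young forward and swapped arrays and -0.011 on the aged swapped array. Values after each array was centred on that median are therefore given where they change a count.

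As a group, the lido genes lay above 0 in both stages and farther above it in aged adults. Their median log2 ratio was 0.61 in young adults and 1.37 in aged adults, where the median of all 2222 genes was 0.025 and 0.18. As folds, the lido medians correspond to 1.52 and 2.59. The medians on the single young arrays were 0.69 forward and 0.56 swapped, and those on the aged arrays were 1.53 forward and 1.15 swapped. Over both stages the median was 1.02, a fold of 2.03, and the members ran from -0.031 to 1.53. Of the 10 genes, 7 were above 0 on all 4 arrays, namely lido-7, lido-9, lido-10, lido-11, lido-12, lido-13 and lido-15, beside 10.9% of all genes. After centring, the group numbered 6 beside 9.14% of all genes, since the young forward value of lido-13 was then -0.059. The members above 0 on both young arrays numbered 8 (37.4% of all genes), or 7 after centring (37.2%), and those above 0 on both aged arrays also numbered 8 (39.1%). Since these ratios chose the family, nothing is read from the comparison with the background.

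**Figure D1:**
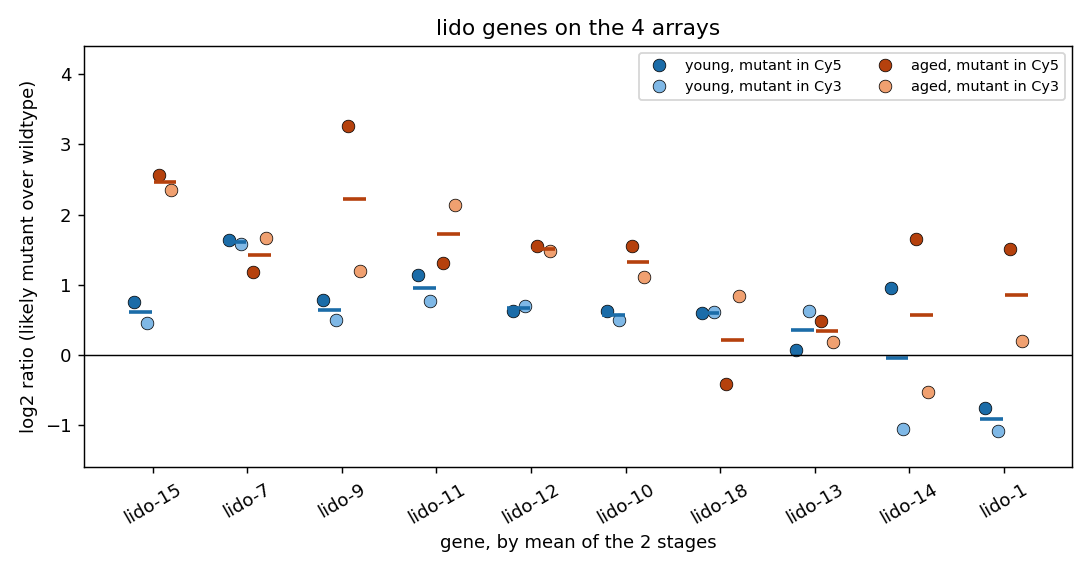
The log2 ratio (vertical axis, no unit) of each lido gene on each of the 4 arrays, with genes ordered by the mean of the stages; points are single arrays and short lines are the mean of the 2 arrays of a stage, blue for young and orange for aged adults. The 6 genes on the left and lido-13 lie above 0 on every array, while lido-14, lido-18 and lido-1 have points on both sides of 0.

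The 5 measured genes of a run on chromosome II were all positive on every array. In the annotation, lido-7 to lido-12 lie among 10 consecutive genes, of which 7 are protein-coding and 6 of those are lido genes, and lido-9, lido-10, lido-11 and lido-12 directly follow one another. The stage means of the 5 were 0.57 to 1.61 in young and 1.33 to 2.22 in aged adults.

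The gene lido-7 (K08A2.4) opened this run and had the highest young adult ratios of the family. Its young values were 1.64 forward and 1.59 swapped, and its aged values were 1.18 forward and 1.66 swapped. The 4 values lay close together, and the aged values spanned the young ones. It was the only lido gene above 1 log2 unit, a fold of 2, on both young arrays, beside 7.92% of all genes. The mean over both stages was 1.52 ± 0.14 (SD, n = 2 stages), and its turned mean was -0.11. In turned values lido-7 stood at 0.027 in young adults, below lido-14 at 0.998.

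For lido-9 (C41H7.6) the young values were 0.79 forward and 0.50 swapped, and the aged values were 3.26 forward and 1.19 swapped. Both aged values exceeded both young ones, but the aged arrays disagreed by 2.06 log2 units, and the higher value came from the widest array. The mean over both stages was 1.44 ± 1.11 (SD, n = 2 stages), or 0.92 without the aged forward array, and its turned mean was 0.59.

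The next gene, lido-10 (C41H7.5), had young values of 0.63 forward and 0.50 swapped, and aged values of 1.55 forward and 1.11 swapped. The stages did not overlap, and the mean over them was 0.95 ± 0.54 (SD, n = 2 stages), with a turned mean of 0.14. Of all members, lido-10 was nearest to the family's mean profile, with a root mean square difference of 0.085 log2 units over the 4 arrays.

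The young values of lido-11 (C41H7.4) were 1.14 forward and 0.77 swapped, and its aged values were 1.31 forward and 2.14 swapped, for a mean of 1.34 ± 0.54 (SD, n = 2 stages) and a turned mean of -0.12. The stages were just separate as deposited. They overlapped after centring, when the aged forward value became 0.94 and the young forward value 1.01.

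The last gene of the run, lido-12 (C41H7.3), had young values of 0.62 forward and 0.70 swapped, and aged values of 1.55 forward and 1.48 swapped. The stages did not overlap, and the orientations lay within 0.080 log2 units of each other in young and 0.063 in aged adults, the latter being the closest aged agreement of the family. The mean over both stages was 1.09 ± 0.60 (SD, n = 2 stages), and its turned mean was -0.0042. Of all 45 pairs of members, lido-10 and lido-12 had the most similar profiles, with a root mean square difference of 0.21, and lido-11 and lido-12 followed at 0.44. The median difference was 0.76 over the 10 pairs within the run, 1.49 over the 10 pairs of members elsewhere. Over all 45 pairs of members it was 1.14, the same as over all pairs of the 2222 genes. Sequences of probes were not used here, so how far each probe tells these related neighbours apart was not tested.

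**Figure D2:**
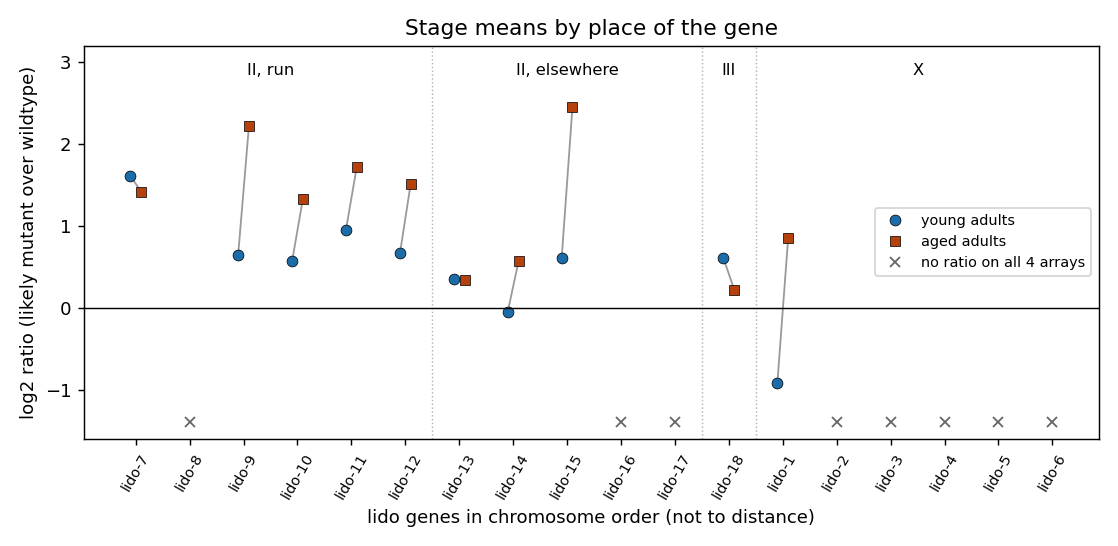
Mean log2 ratio (vertical axis, no unit) of each lido gene in young adults (circles) and aged adults (squares), with genes in chromosome order and not spaced by distance; crosses, placed at the bottom without a value, mark genes lacking a ratio on at least 1 array. The 5 measured genes of the run on chromosome II lie between 0.57 and 2.22 in both stages, whereas the other members vary between -0.92 and 2.46.

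Among the 5 lido genes elsewhere on chromosome II, 3 were measured on all arrays and they differed widely. The gene lido-15 (F54D10.3) had young values of 0.76 forward and 0.46 swapped, and aged values of 2.56 forward and 2.35 swapped. Both aged values lay far above both young values, and the orientations were close in each stage. Its aged mean of 2.46, a fold of 5.49, was the highest of the family and the 23rd highest of the 2222 genes, and its young mean of 0.61 was the 529th. The mean over both stages was 1.53 ± 1.31 (SD, n = 2 stages), so the stage SD was nearly as large as the mean. Its turned values were 0.15 in young and 0.10 in aged adults, which ranked 961st and 1260th, and lido-14 and lido-9 were then the highest members in aged adults.

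The gene lido-13 (B0454.9) is the direct protein-coding neighbour of lin-8 itself, with 0 protein-coding genes between them. Its young values were 0.076 forward and 0.63 swapped, and its aged values were 0.49 forward and 0.18 swapped. All 4 values were small and positive and the stages overlapped, for a mean of 0.35 ± 0.011 (SD, n = 2 stages). This SD covers the 2 stage means only and is no measure of precision, since the single arrays ran from 0.076 to 0.63. Without the young swapped array the mean was 0.21, and the turned mean was -0.062. No named probe represented lin-8, so its own ratio was not analysed here.

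The orientations of lido-14 (F14D2.2) opposed each other in both stages. Its forward ratios were 0.95 in young and 1.66 in aged adults, and its swapped ratios were -1.05 and -0.52. The averages, -0.048 and 0.57, therefore lay between values of opposite sign, and the mean over stages was 0.26 ± 0.44 (SD, n = 2 stages), or -0.28 to 0.80 with 1 array left out. Positive forward and negative swapped ratios in both stages were found for 1 lido gene and for 7.29% of all genes. With the swapped arrays turned, as they would be if none had been turned before deposit, lido-14 had stage means of 0.998 and 1.09 and was the 22nd highest of the 2222 genes. Turning would apply to every gene of an array and not to lido-14 alone. Under the deposited signs used for the other members, the orientations of lido-14 disagree, and the cause was not tested.

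On chromosome III, lido-18 (C18H2.1) had young values of 0.60 forward and 0.61 swapped, and aged values of -0.41 forward and 0.84 swapped. The young values were nearly equal, while the aged values lay on either side of 0 and of the young ones. Its mean over both stages was 0.41 ± 0.27 (SD, n = 2 stages). It was 0.72 without the aged forward array and 0.10 without the aged swapped array, and its turned value was -0.31.

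On the X chromosome, where 6 consecutive genes carry the symbols lido-1 to lido-6, only lido-1 (C08A9.6) had a ratio on all arrays. Its young values were -0.75 forward and -1.08 swapped, and its aged values were 1.5 forward and 0.20 swapped. Both young values were negative and both aged values positive, and lido-1 was the only member with this pattern, which 19.1% of all genes shared. The stage means of -0.92 and 0.85 cancelled to -0.031 ± 1.25 (SD, n = 2 stages), so the mean over stages describes neither. The turned mean was 0.41, and leaving out 1 array put the mean between -0.36 and 0.29.

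In the order of means over both stages, lido-15, lido-7, lido-9 and lido-11 came first, between 1.53 and 1.34. They were followed by lido-12 at 1.09 and lido-10 at 0.95, and then by lido-18, lido-13, lido-14 and lido-1, which were all at 0.41 or below. Of the 9 gaps between neighbours in this order, 0 exceeded the larger stage SD of the pair. The widest gap, 0.54 log2 units between lido-10 and lido-18, nearly equalled that SD. Since the stage SD holds the difference between the ages, these gaps do not show how reliable the order is. The order of turned means was another one, with lido-14 at 1.04, lido-9 at 0.59 and lido-1 at 0.41 first, and lido-7, lido-11 and lido-18 last between -0.11 and -0.31.

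The stages were then set side by side, which the design text treats as duplicates in most respects. The median of the members' aged minus young differences was 0.77, where the median over all genes was 0.094. Both aged arrays lay above both young arrays for 6 members, namely lido-1, lido-9, lido-10, lido-11, lido-12 and lido-15, beside 33.1% of all genes. The opposite arrangement was found for 0 members and for 27.6% of all genes. The other 4 members had overlapping stages, as did the rest of all genes. The largest differences were 1.85 for lido-15, 1.77 for lido-1 and 1.58 for lido-9. After centring, 5 members had both aged arrays above both young ones, lido-11 no longer being among them, and the median difference was 0.61. Over all genes the share was then 30.2%, against 32.0% for the opposite arrangement, which 0 members showed. Without centring, the median difference was 0.54 when the aged forward array was left out and 0.94 when the aged swapped array was. Age and the difference between single RNA samples cannot be told apart in this design.

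**Figure D3:**
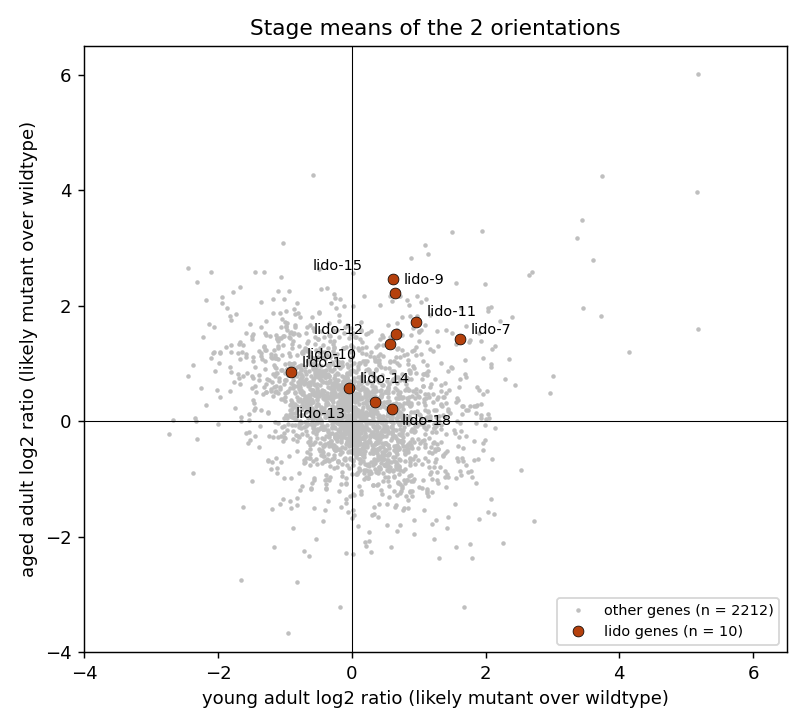
Mean log2 ratio of the 2 arrays in young adults (horizontal axis) against aged adults (vertical axis), both without unit, for 10 lido genes (orange, named) and the other genes with 4 ratios (grey). Most lido genes lie to the upper right of the origin, with lido-15 and lido-9 highest in aged adults and lido-7 farthest right, while lido-1 lies left of 0.

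Ratios above 1 log2 unit on both aged arrays were found for 6 members, lido-7, lido-9, lido-10, lido-11, lido-12 and lido-15, beside 7.07% of all genes. After centring this number was 4, beside 5.67% of all genes, because lido-7 and lido-11 had 0.81 and 0.94 on the aged forward array. Leaving out the young swapped array brought the number of members above 1 in young adults from 1 to 2, with lido-11 at 1.14 on the array that remained. A rule on a single array is looser, and the share of all genes meeting it is not given here, so nothing is read from this rise.

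The orientations differed by more than 1 log2 unit in at least 1 stage for 4 of the 10 members, lido-1, lido-9, lido-14 and lido-18, and for 961 of the 2222 genes (43.2%). The gap exceeded 1 unit in aged adults for all 4 members and in young adults for lido-14 alone. The 6 members with closer orientations were all positive on every array, and their medians were 0.64 in young and 1.47 in aged adults. Requiring close orientations itself favours equal signs, and the share among all genes meeting it was not counted, so nothing is read from this. With the swapped arrays turned, the family medians were 0.10 in young and 0.13 in aged adults, and lido-14 was then the 1 member above 0 on both young arrays (18.7% of all genes), on both aged arrays (25.5%) and on all 4 (7.29%). Turned values above 1 were found for 0 members on both young arrays (0.405%) and for 0 on both aged arrays (1.13%).

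**Figure D4:**
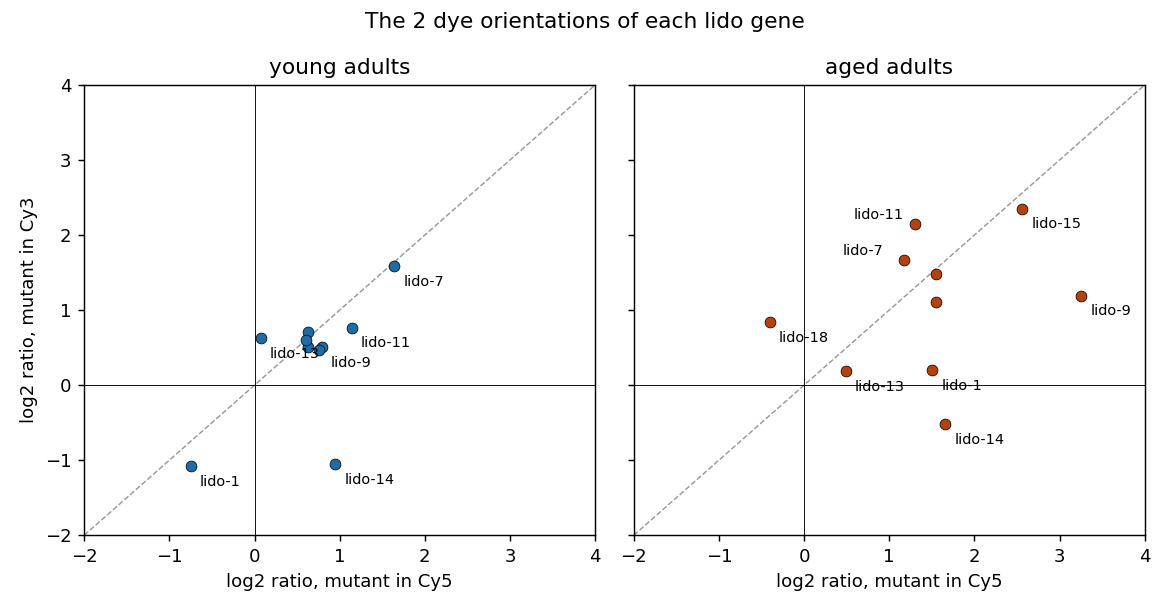
For each lido gene, the log2 ratio on the forward array, with the mutant in Cy5 (horizontal axis), against that on the swapped array, with the mutant in Cy3 (vertical axis), without unit, in young adults (left) and aged adults (right); the dashed line marks equal values. Young adult points lie near the line except lido-14, and aged adult points scatter more widely, with lido-9, lido-14, lido-1 and lido-18 more than 1 log2 unit apart.

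The other lido genes were measured in part or not at all. The pseudogene lido-3 (C08A9.8) on the X chromosome had a ratio on both swapped arrays and on neither forward array, at -0.73 in young and -0.35 in aged adults. For lido-16 (T28D9.9) on chromosome II, 1 ratio was present, -0.13 on the aged forward array. These ratios, the only ones outside the 10 members, were all negative. The genes lido-4, lido-5, lido-6 and lido-17 had a named probe with 0 ratios, and lido-2 and lido-8 had no named probe. The member ratios therefore describe the genes whose probe gave a ratio on every array, not the whole family or its X-linked group.

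Genes beside the lido genes showed mixed ratios. Among the nearest genes with 4 ratios, up to 5 annotated genes away on either side, 5 were not lido genes, and they flanked 4 members. Of these 5, 1 was above 0 on all 4 arrays, beside 10.9% of all genes, and their median ratios were 0.84 in young and 0.068 in aged adults. Next to lido-15, F54D10.5 had a young mean of -0.30 and an aged mean of 0.38, and F54D10.7 had means of 0.84 and 0.54, where those of lido-15 itself were 0.61 and 2.46. Beyond lido-12, the young mean of C41H7.2 was 1.13 and the aged mean 0.068. Near lido-14, the means of Y49F6C.8 were 0.90 and -0.46. For the pseudogene C18H2.2, near lido-18, they were -2.34 and 0.060.

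Other genes with the family's profile were sought by the root mean square difference over the 4 arrays from the mean of the 10 members. The nearest 5 were Y73B6BL.12 (0.17 log2 units), K09C6.9 (0.21), F22E5.17 (0.23), wbp-2 (0.25) and F23H12.3 (0.25). They lie on chromosomes IV, V, II, II and V in that order. Of the members, lido-10 was nearer to the mean than any of these, and the next nearest, lido-12, was farther away at 0.27. The gene most like lido-15 was F10G2.4, with stage means of 0.70 and 2.16, and the gene most like lido-1 was R166.3, with -0.88 and 0.95. Only 4 arrays enter each of these differences.

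Neither relatives of the pathway nor the tissue could be checked through named genes. Of the 29 symbols in a list of synthetic multivulva and related genes, lin-8 and lin-35 included, 28 were in the annotation and 0 had a named probe. Of the 17 symbols of small RNA genes listed with cde-1, 16 were in the annotation and 0 had a named probe. Markers of germline and somatic gonad, intestine, muscle, hypodermis and neurons numbered 30, and 0 of them had a named probe. The gonad label and the makeup of the dissected tissue were therefore not checked against markers, and their part in these ratios was not tested. All symbols on these lists were also absent from the background. The shares over all genes thus describe the 2222 named genes only, while 8323 probes, named or not, had a ratio on all 4 arrays.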

How the data were processed

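The authors deposited 1 value per probe and array for 22562 probes. Agilent Feature Extraction is named per the submitters' processing notes, with no version. The deposited values were taken as log10 ratios, as that program writes them, and converted to log2 ratios by a factor of 3.32. If they were log2 already, all sizes shrink by this factor. An exact 0, which made up 43.7% to 52.2% of a column, counted as no ratio. How dyes and background were corrected, and the genome build of the array, are not stated in the labels.

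A gene symbol was available for 7718 probes, and 14844 probes stayed unnamed here. Symbols were updated through gene identifiers to WBcel235, which 7691 probes matched. Probes were averaged per gene on each array, and forward and swapped arrays were then averaged within a stage. Over probes, forward and swapped arrays had Pearson correlations of 0.58 (young) and 0.34 (aged), and arrays of different stages of -0.31 to -0.065.

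The members and lists were chosen with earlier results of these data known, and no tests were made. Genes named are the members, other lido genes, their nearest measured neighbours and the nearest profiles. Python 3.11.15 with pandas 2.3.3 and numpy 2.4.6 was used, and the steps were tested on simulated data. The number of arrays limits the precision.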

Additional observations from a re-analysis of the deposited data

Results flagged for a closer look

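For 4 of the genes named above, forward and swapped arrays gave one sign in young adults and the opposite sign in aged adults. Negative young and positive aged values, as in lido-1, R166.3 and F54D10.5, were found for 19.1% of all genes. The share for the opposite order, that of Y49F6C.8, was not counted. The difference between stages was not tested, since each stage has 1 RNA sample per genotype. The aged minus young log2 ratio was 1.77 for lido-1 and 1.83 for R166.3. The latter was named for its likeness to lido-1, so its pattern follows from that choice. The ratio was 0.68 for F54D10.5, beside lido-15, and -1.35 for Y49F6C.8, near lido-14. The aged swapped value of Y49F6C.8 was -0.0066 and became 0.0047 after centring, so 3 of the 4 genes kept this pattern then.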

How the results depend on the processing

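With the swapped arrays turned, the family medians were 0.10 in young adults, 0.13 in aged adults, 0.061 over both stages and 0.081 for the aged minus young difference. Under that setting 1 member was above 0 on both young arrays (18.7% of all genes), 1 on both aged arrays (25.5%) and 1 on all 4 (7.29%), and 0 were above 1 in either stage (0.405% and 1.13%). The means over both stages reversed to 0.41 for lido-1, -0.11 for lido-7, -0.12 for lido-11, -0.0042 for lido-12, -0.062 for lido-13 and -0.31 for lido-18. This follows from the turned sign, which puts orientation differences in place of averages. Taking the deposited values as log2 gave 0.18, 0.41, 0.31 and 0.23 for the 4 medians in that order and 0 members above 1 in either stage. Quantile normalization gave a stage difference of 0.59, and 4 members above 1 on both aged arrays where the main setting gave 6. The share of all genes under it is not given here, and the cause was not tested. Leaving out 1 array gave stage differences of 0.54 to 0.94, 1 to 2 members above 1 in young adults and 6 to 8 in aged adults. A stage left with 1 array meets a looser rule, whose share over all genes is not given here. Leaving out 1 array put the mean of lido-1 between -0.36 and 0.29, that of lido-14 between -0.28 and 0.80, that of lido-18 between 0.10 and 0.72, that of lido-13 between 0.21 and 0.48 and that of lido-9 between 0.92 and 1.95. Centring, keeping zeros and leaving out members with discordant orientations kept each family median within its spread and each count within 1.5 times. Keeping zeros could change no member, since each had a ratio on all 4 arrays. Of 96 values of single genes over 10 settings, 68 stayed within their stage SD with the same sign, 18 moved by more and 10 reversed. The 68 include 10 from keeping zeros and 6 from leaving out other members, which could not change a single gene. Stage SDs also differ widely between genes. Taken as log2, lido-9 at 0.43 stayed within its SD of 1.11. Without the aged forward array, lido-13 at 0.27 moved beyond its SD of 0.011. Spot signals were not used here, so which ratios come from dim spots is unknown.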
